A study of Mus musculus with 12 samples.

Results

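The oxygen sensors and the subunits of the hypoxia-inducible factors (HIF) are a set of 9 genes: Egln1, Egln2, Egln3, Hif1an, Vhl, Hif1a, Epas1, Hif3a and Arnt. The set was taken by name, and the estimated counts of each gene's transcripts were summed. All 9 were found among the 35975 genes of the 12 libraries, and all 9 passed the filter on low counts that left 16178 genes to test. The label of the set rests on these names. The 9 genes were chosen with earlier results of these data known.

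HIF is a transcription factor made of an oxygen-sensitive alpha subunit (HIF1A, EPAS1 or HIF3A) and the stable partner ARNT. When oxygen is at hand, the prolyl hydroxylases PHD2, PHD1 and PHD3, encoded by Egln1, Egln2 and Egln3, hydroxylate the alpha subunit, and the VHL ubiquitin ligase then marks it for degradation. The asparaginyl hydroxylase FIH, encoded by Hif1an, blocks the recruitment of coactivators to the alpha subunit. All these hydroxylases need oxygen, iron and 2-oxoglutarate. Egln1 and Egln3 are known as HIF target genes themselves, while Egln2 is not known as one. Alpha subunits are mainly controlled as proteins, which RNA counts do not show.

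The libraries are of primordial germ cell-like cells (PGCLCs), a culture model of the founders of the germ line. The starting cells were E14TG2a, a mouse embryonic stem cell line, held on fibronectin in serum-free medium with 2 kinase inhibitors, LIF and vitamin C. The line was used as wild type (WT) or as the line labelled TKO, which the study is known to have made by knocking out the DNA methyltransferase genes Dnmt1, Dnmt3a and Dnmt3b. Priming turned them into epiblast-like cells (EpiLCs) over 40, 48 or 96 h. A culture of 4 days as floating aggregates followed, with the factors BMP4, BMP8, SCF, EGF and LIF, before total RNA was taken. The groups, named by line and hours of priming, are WT_40h, TKO_40h, TKO_48h and TKO_96h, with 3 biological replicates each. WT cells primed for 48 or 96 h are not analysed here, so in TKO_48h or TKO_96h against WT_40h the genotype and the priming time cannot be told apart. The labels name no separate TKO clones, do not tell if cells were sorted before RNA extraction, and give no oxygen level for the cultures. The labels call the replicates biological without naming separate cultures, so p-values measure the spread between these samples, which may be technical in part.

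Matched genes held 6286329 to 8820668 estimated counts per library. The targeted genes were lower in all 9 TKO libraries than in any WT library: Dnmt1 was at 426 to 450 CPM (counts scaled to library size) in WT_40h and at most 152 CPM in the TKO libraries. Dnmt3a was at 358 to 436 CPM against at most 73.1 CPM, and Dnmt3b at 157 to 215 CPM against at most 55.4 CPM. TKO_48h replicate 1 stood apart at -85.6 on a second principal component where the next library was at -20.7. TKO_96h replicate 1 did not stand apart there, but 3.06% of its counts came from Lars2 and Ccnb1ip1, against 1.3 to 1.93% in the other libraries. Both are called the libraries that stand apart, and the calls of the 9 genes and of the lists around HIF that change without both are given.

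The 250 bases before the RefSeq start (GRCm38.p6) of the 3 genes that differed among the 4 groups are shown here because Egln1 and Egln3 are known HIF targets and Hif1a encodes the factor. They read 5′ to 3′ on the gene's strand, and capitals mark the core letters of the HIF response element, ACGTG or GCGTG, searched on both strands. A palindrome CACGTG holds ACGTG on both strands and is in capitals throughout.
Egln1 (chr8:124949255-124949504, minus strand): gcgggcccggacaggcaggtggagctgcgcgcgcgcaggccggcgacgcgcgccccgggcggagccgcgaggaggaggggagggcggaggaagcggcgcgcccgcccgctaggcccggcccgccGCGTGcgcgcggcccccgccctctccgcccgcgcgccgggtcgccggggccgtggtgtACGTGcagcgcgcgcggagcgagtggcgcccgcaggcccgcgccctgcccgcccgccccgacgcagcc
Egln3 (chr12:54203875-54204124, minus strand): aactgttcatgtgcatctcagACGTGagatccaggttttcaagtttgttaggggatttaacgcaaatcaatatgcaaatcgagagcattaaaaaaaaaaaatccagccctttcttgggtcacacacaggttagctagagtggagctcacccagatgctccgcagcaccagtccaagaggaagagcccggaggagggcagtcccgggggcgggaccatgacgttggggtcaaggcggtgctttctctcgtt
Hif1a (chr12:73907617-73907866, plus strand): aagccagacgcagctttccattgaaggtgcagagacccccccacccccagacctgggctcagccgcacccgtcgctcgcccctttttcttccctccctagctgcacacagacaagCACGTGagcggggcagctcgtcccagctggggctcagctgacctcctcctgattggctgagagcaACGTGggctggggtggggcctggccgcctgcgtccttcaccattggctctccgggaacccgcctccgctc
The Egln1 stretch holds 1 ACGTG centred 66 bases before the start and 1 GCGTG centred 124 bases before it. The Egln3 stretch holds 1 ACGTG, centred 227 bases before the start. In Hif1a, a CACGTG palindrome and 1 further ACGTG, centred 68 bases before the start, were found. The annotated Egln1 gene whose transcripts were counted reaches to 124949324, so its ACGTG lies inside that gene. The annotated Hif1a gene starts at 73901375, so the whole Hif1a stretch lies inside its span.

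Such letters are common: of 32851 RefSeq windows of 300 bases (250 before and 50 after a start), 19.6% held ACGTG, 32.4% held GCGTG and 43.8% held either. CACGTG was in 7.15%. A window was at hand for 8 of the 9 genes, all but Epas1. Egln2, which is not known as a HIF target, had both letter strings in the first of its 2 windows, including a CACGTG that spans the base before the start. Hif1an and Vhl had neither string in their windows, and Hif3a and Arnt had GCGTG only. The Egln1 window of 300 bases was 86% G or C and held 60 CpG dinucleotides, against 16 in Egln3, 25 in Hif1a and a median of 7 over all windows. No methylation or binding was measured here, and a match is a description of the letters only.

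Across the 4 groups, 3 of the 9 genes differed by edgeR's quasi-likelihood F-test with Benjamini-Hochberg adjustment over all 16178 genes: Egln3 (adjusted p = 1.3e-11), Egln1 (adjusted p = 1.5e-10) and Hif1a (adjusted p = 0.001). Of all genes tested, 25.5% passed the same test. Egln2, Hif1an, Vhl, Epas1, Hif3a and Arnt did not pass (adjusted p from 0.086 to 0.36). A library holds RNA of many cells, so fewer cells of a type and less RNA per cell cannot be told apart in any value below.

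**Figure D1:**
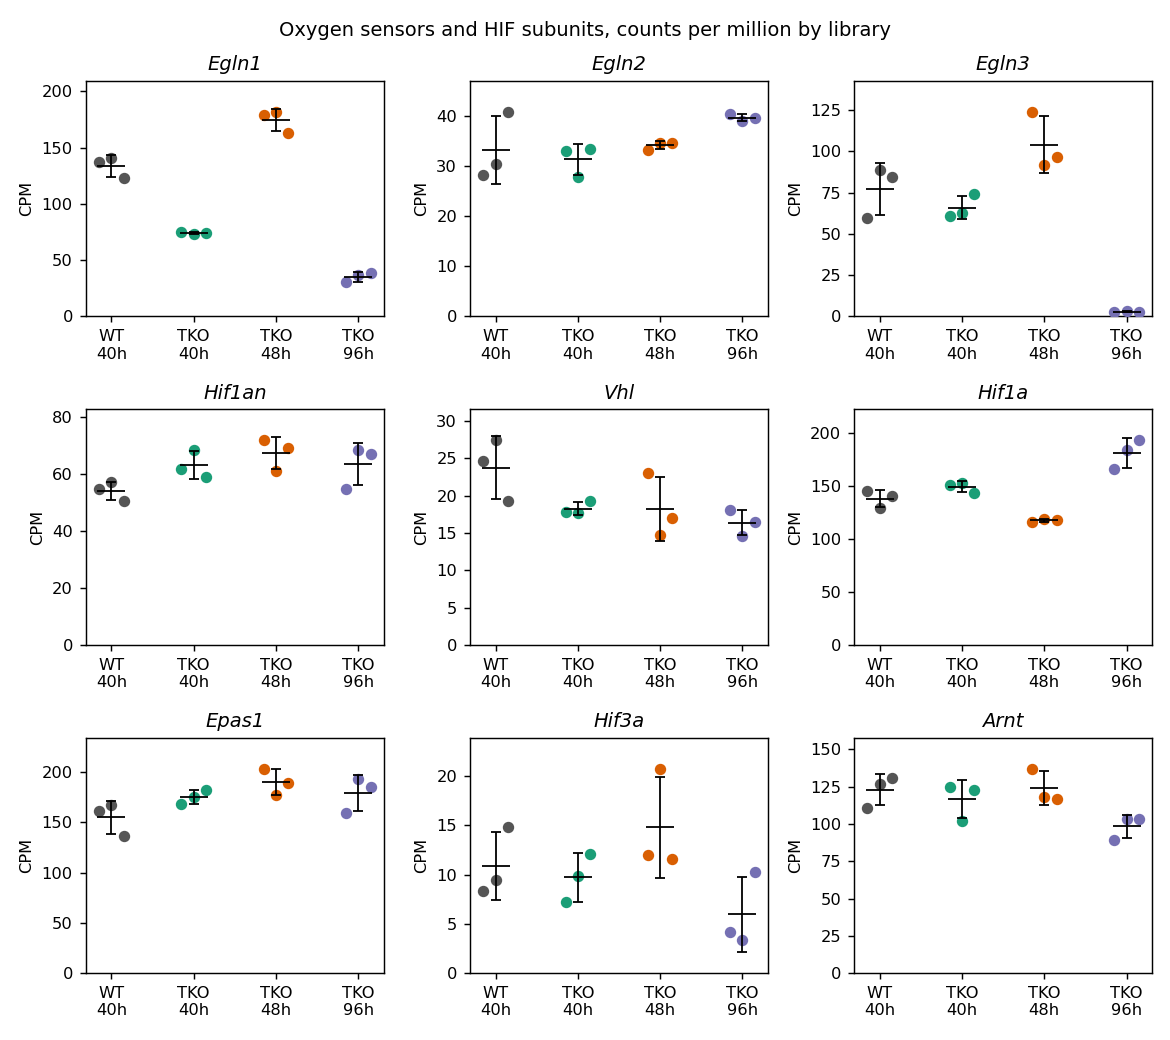
Scaled counts in CPM (vertical axes, each from 0) of the 9 genes in the 12 libraries, by group; points are libraries, bars the mean and SD (n = 3). Egln1 is lowest in TKO_96h (30.5 to 39 CPM) and highest in TKO_48h (163 to 182 CPM), Egln3 lies at 2.64 to 3.5 CPM in TKO_96h, and most other genes have groups that overlap.

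With both genotypes primed for 40 h, the sensor Egln1 was the only one of the 9 genes to pass, lower in TKO_40h. Over all genes tested, 1.62% were higher and 1.48% lower in that comparison. With TKO primed for 48 h instead of 40 h, Egln1 and Egln3 were higher and none of the 9 was lower, where 2.57% of all genes were higher and 2.92% lower. With 96 h instead of 40 h, the same genes, Egln1 and Egln3, were lower and none was higher, against 4.94% higher and 7.2% lower over all genes. Between 96 and 48 h, Hif1a was higher and Egln1, Egln3 and Hif3a were lower, against 8.82% and 10.7% of all genes. These comparisons share the TKO libraries and are not independent of each other.

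Against WT_40h, TKO_48h had Egln1 higher and none of the 9 lower, where 2.84% of all genes were higher and 2.82% lower. TKO_96h had Hif1a higher and Egln1 and Egln3 lower than WT_40h, where 9.1% of all genes were higher and 10.1% lower. Both share the WT libraries with the comparison at 40 h.

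**Figure D2:**
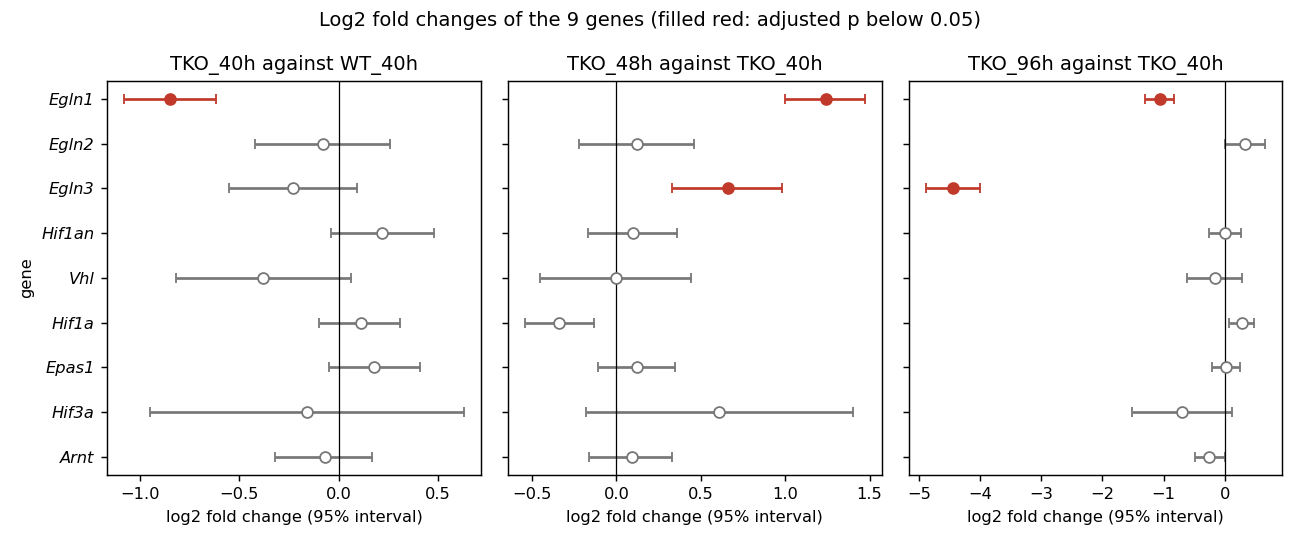
Log2 fold changes (horizontal axes, which differ in range) of the 9 genes in 3 comparisons, with 95% intervals from the edgeR fit; filled red points passed at an adjusted p below 0.05. Egln1 lies left of 0 in TKO_40h against WT_40h (-0.85), right of it in TKO_48h against TKO_40h (1.24) and left of it in TKO_96h against TKO_40h (-1.06), where Egln3 is at -4.45.

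Egln1 encodes PHD2, the main oxygen sensor for HIF1A in most cells. The gene (ENSMUSG00000031987.6, GRCm38 chromosome 8, 124908587 to 124949324, minus strand) was counted from a single transcript. In WT_40h its level was 137, 141 and 123 CPM. In TKO_40h it was 75.5, 73.1 and 73.9 CPM. In TKO_48h it was 179, 182 and 163 CPM, and in TKO_96h 30.5, 36.7 and 39 CPM. The 4 groups did not overlap, in the order TKO_48h, WT_40h, TKO_40h, TKO_96h.

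TKO_40h was below WT_40h by a log2 fold change of -0.85 ± 0.11 (SE, 1.8-fold, adjusted p = 0.00022). Within TKO, Egln1 rose with 48 h of priming, by 1.24 ± 0.11 (2.36-fold, adjusted p = 3.1e-06), and ranked 4 by p among all genes in that comparison. With 96 h it was below the 40 h level by -1.06 ± 0.12 (2.09-fold, adjusted p = 3.9e-06). From TKO_48h to TKO_96h the log2 fold change was -2.30 ± 0.12, or 4.93-fold (adjusted p = 3.3e-11). These 4 calls held in every alternative run, with adjusted p-values of at most 0.0069, 0.00028, 0.00018 and 1.6e-07. TKO_96h was also below WT_40h, by -1.91 ± 0.12 (adjusted p = 7.4e-10).

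The rise of Egln1 in TKO_48h over WT_40h was smaller, 0.39 ± 0.11 (1.31-fold, adjusted p = 0.042), with no overlap between the 3 libraries of each group. It did not pass when any 1 library was left out, other than TKO_96h replicate 1 or replicate 3 (adjusted p from 0.054 to 0.16 and log2 fold change from 0.35 to 0.45). In a fit of these 2 groups alone it gave adjusted p = 0.066.

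Egln3 encodes PHD3, a hydroxylase known for its strong induction by low oxygen. The gene (ENSMUSG00000035105.5, chromosome 12, 54178981 to 54203860, minus strand) was also counted from a single transcript. Its level in WT_40h was 59.4, 88.6 and 84.2 CPM, and in TKO_40h 61, 62.6 and 73.9 CPM, so that these groups overlapped. In TKO_48h it was 124, 91.9 and 96.3 CPM. In TKO_96h it was 2.87, 3.5 and 2.64 CPM, from 19, 25 and 20 estimated counts, far under every other library.

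TKO_96h was below TKO_40h by a log2 fold change of -4.45 ± 0.21, or 21.8-fold (adjusted p = 1.6e-11). It ranked 8 by p among the 16178 genes in that comparison. The difference was -5.11 ± 0.21 from TKO_48h, or 34.4-fold (adjusted p = 1.1e-12), and -4.68 ± 0.21 from WT_40h, or 25.6-fold (adjusted p = 6.8e-12). All 3 held in every alternative, with adjusted p-values of at most 5.9e-09, 2.7e-09 and 1.3e-09.

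The other comparisons of Egln3 were less firm. TKO_48h was above TKO_40h by 0.66 ± 0.15 (1.58-fold, adjusted p = 0.017) without overlap. This call was lost without TKO_48h replicate 1, the library that stands apart and holds the highest level (0.51, adjusted p = 0.084), and without TKO_40h replicate 1 or replicate 2 (adjusted p = 0.094 and 0.080). Leaving out both libraries that stand apart gave 0.52 (adjusted p = 0.055), and an offset for each gene's effective length in each library gave 0.67 (adjusted p = 0.084). Between TKO_40h and WT_40h, where Egln1 differed, the log2 fold change of Egln3 was -0.23 with a 95% interval from -0.55 to 0.09 (adjusted p = 0.53). Whether the 2 genes differ in their response to the genotype was not tested.

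Egln2 encodes PHD1. It lay at 28.3, 30.4 and 40.9 CPM in WT_40h, at 33, 27.8 and 33.4 CPM in TKO_40h, at 33.3, 34.6 and 34.7 CPM in TKO_48h and at 40.5, 39.1 and 39.6 CPM in TKO_96h. The groups overlapped, except that TKO_96h lay above TKO_40h and TKO_48h. No comparison passed: for TKO_96h against TKO_40h, without overlap, the log2 fold change was 0.34 (95% interval 0.00 to 0.67, adjusted p = 0.2).

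On the TPM scale, which divides counts by effective length so that genes can be set side by side, the make-up of the PHD family differed between groups. In WT_40h, Egln1 took 43.3 ± 7.15% (SD, n = 3) of the 3 genes' summed TPM, Egln3 33.8 ± 3.14% and Egln2 22.9 ± 5.32%. In TKO_40h the shares were 32.5 ± 1.84%, 39.6 ± 3.81% and 27.9 ± 4.3% in the same order. In TKO_48h Egln1 was at 44.5 ± 1.83%, Egln3 at 36.3 ± 4.21% and Egln2 at 19.2 ± 2.52%. In TKO_96h, Egln2 took 67.8 ± 4.27%, Egln1 28.8 ± 4.16% and Egln3 3.35 ± 0.52%. The summed level of the 3 genes was 54.1, 41.9, 58.5 and 22.3 TPM in WT_40h, TKO_40h, TKO_48h and TKO_96h. These shares are descriptions and were not tested. That of Egln2 includes short non-coding transcripts with few counts, which raise it. Among them, Egln2-203 (455 bases) had 4 to 9.2 counts per library in TKO_96h. Egln1 and Egln3 were each counted from a single transcript.

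**Figure D3:**
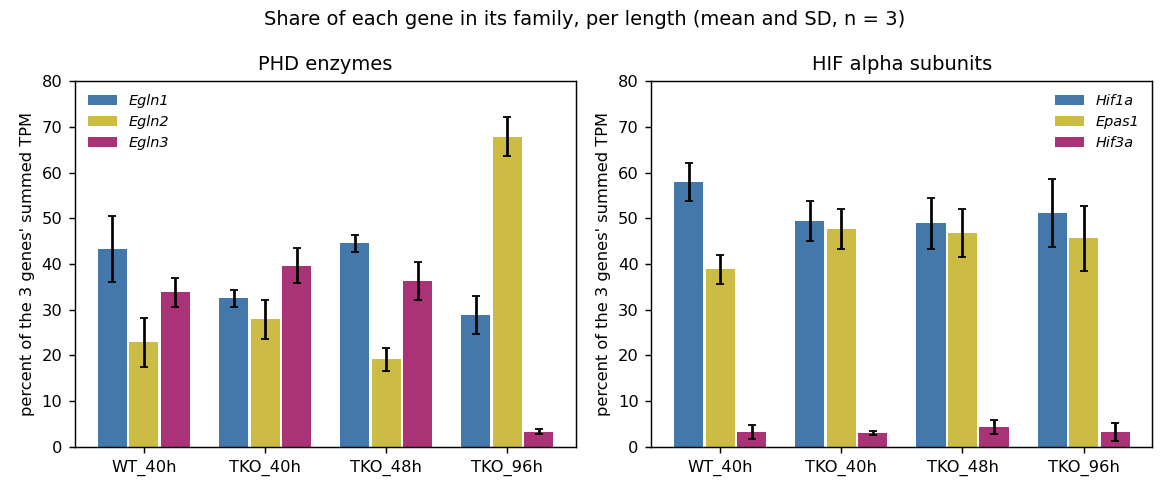
Share of each gene in the summed TPM of its family (vertical axes, percent), for the 3 PHD genes on the left and the 3 HIF alpha genes on the right, by group; bars are means and lines the SD (n = 3). Egln2 takes 67.8% of the PHD family in TKO_96h and at most 27.9% on average elsewhere, while Hif1a and Epas1 split the alpha family in all 4 groups. The TPM of Egln2, Hif1a and Epas1 include short non-coding transcripts with few counts.

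Hif1an encodes FIH, the asparaginyl hydroxylase. In WT_40h it spanned 50.6 to 57 CPM. The TKO libraries spanned 58.9 to 68.5 CPM after 40 h of priming, 61.1 to 71.8 CPM after 48 h and 54.8 to 68.3 CPM after 96 h. WT_40h lay below TKO_40h and TKO_48h without overlap, but neither difference passed: 0.22 (95% interval -0.04 to 0.48, adjusted p = 0.44) and 0.31 (0.05 to 0.58, adjusted p = 0.16).

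Vhl encodes the substrate receptor of the ubiquitin ligase that binds hydroxylated alpha subunits. WT_40h libraries had 19.2 to 27.4 CPM of it. The TKO libraries had 17.7 to 19.2 CPM with 40 h of priming, 14.7 to 23 CPM with 48 h and 14.6 to 18 CPM with 96 h. The highest values were in WT_40h, and TKO_96h lay below them without overlap, at a log2 fold change of -0.54 (95% interval -0.98 to -0.09, adjusted p = 0.084). The other comparisons of Vhl gave adjusted p-values from 0.34 to 1.

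Hif1a encodes the alpha subunit HIF1A (ENSMUSG00000021109.13, chromosome 12, 73901375 to 73947530, plus strand). Its level was 145, 129 and 140 CPM in WT_40h and 151, 153 and 143 CPM in TKO_40h. In TKO_48h it was 116, 119 and 118 CPM, the lowest of the 4 groups. In TKO_96h it was 166, 184 and 193 CPM, the highest. The order of the groups was thus TKO_96h, TKO_40h, WT_40h, TKO_48h, and only WT_40h and TKO_40h overlapped.

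Hif1a was higher in TKO_96h than in TKO_48h by a log2 fold change of 0.62 ± 0.10 (1.53-fold, adjusted p = 0.00021) and higher than in WT_40h by 0.39 ± 0.10 (1.31-fold, adjusted p = 0.0092). Against TKO_40h, the differences of TKO_48h (-0.34 ± 0.10, adjusted p = 0.056) and TKO_96h (0.28 ± 0.10, adjusted p = 0.071) did not pass. Both passed with DESeq2 (adjusted p = 0.022 and 0.039), that of TKO_48h also without TKO_96h replicate 1 (0.043), and that of TKO_96h passed without both libraries that stand apart (adjusted p = 0.019), TKO_48h replicate 2 (0.048) or TKO_96h replicate 1 (0.047). Without WT_40h replicate 2 the call against WT_40h was lost (0.35, adjusted p = 0.055).

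Hif1a counts are spread over several transcripts, of which Hif1a-201 carried 64.98 to 85.27% per library. The mean effective length of the gene ran from 2800 bases in TKO_48h to 3702 bases in TKO_96h, in the same direction as its counts. In TPM, TKO_48h was at 18.1, 21.7 and 25 and TKO_96h at 25.1, 35 and 30.9, so that the highest library of the former lay next to the lowest of the latter. With an offset for effective length the log2 fold change between them was 0.17 (adjusted p = 0.56), and that against WT_40h was 0.10 (adjusted p = 0.75). Both Hif1a calls were thus lost with that offset. The single transcript Hif1a-201 stood at 15.2, 12.2 and 15.8 TPM in WT_40h and at 16.5, 15.2 and 13.2 TPM in TKO_40h. It had 8.66, 11.1 and 8.63 TPM in TKO_48h and 18.5, 20.9 and 19.9 TPM in TKO_96h, so that TKO_96h lay above every other group. These transcript values are a description without a test, and the files give no error for how reads were divided among transcripts. Egln1 and Egln3 had nearly constant mean effective lengths, from 3410 to 3417 and from 2478 to 2485 bases.

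Epas1 encodes HIF2A, the other main alpha subunit. WT_40h spanned 136 to 167 CPM, TKO_40h 168 to 182 CPM, TKO_48h 177 to 203 CPM and TKO_96h 159 to 193 CPM. WT_40h lay under TKO_40h and TKO_48h without overlap and overlapped TKO_96h. No comparison passed. The log2 fold change nearest to the threshold was that of TKO_48h against WT_40h, at 0.29 (95% interval 0.06 to 0.52, adjusted p = 0.13). Without both libraries that stand apart, TKO_96h was higher than WT_40h (0.30, adjusted p = 0.045), against 0.21 with all libraries (adjusted p = 0.21).

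Set side by side per length, in WT_40h Hif1a took 57.9 ± 4.12% and Epas1 38.8 ± 3.23% of the summed TPM of the 3 alpha genes. In the TKO groups Hif1a took 48.9 to 51.2% on average and Epas1 45.6 to 47.7%. The sums of both genes include short non-coding transcripts with few counts. Epas1-202 (332 bases) made up 11.8 of 29.1 TPM in TKO_96h replicate 1, from 20.9 counts. It had at most 1.46 TPM in WT_40h, and none in TKO_48h replicate 1 or TKO_96h replicate 3. Coding Epas1-201 alone had 15.2 to 18.05 TPM in WT_40h. TKO_48h (15.96 to 19.99) and TKO_96h (17.3 to 24.4) overlapped it, and TKO_40h (19.4 to 21.7) did not. These shares were not tested.

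Hif3a, whose product is known to include splice forms that inhibit the other alpha subunits, took only 3.00 to 4.37% on average. Its level was 8.35, 9.48 and 14.8 CPM in WT_40h, 7.19, 9.84 and 12.1 CPM in TKO_40h, 12, 20.7 and 11.6 CPM in TKO_48h and 4.23, 3.36 and 10.3 CPM in TKO_96h. These values rest on 24 to 155 estimated counts per library, and the spread within groups was wide. TKO_96h was below TKO_48h by -1.31 ± 0.39 (2.47-fold, adjusted p = 0.023). The call was lost without TKO_48h replicate 2 (adjusted p = 0.12), TKO_96h replicate 1 (0.093) or replicate 2 (0.10), without both libraries that stand apart (0.068) and with the length offset (log2 fold change -0.42, adjusted p = 0.66). Without TKO_96h replicate 3, the highest of its group, Hif3a was also lower than in TKO_40h (-1.35, adjusted p = 0.036) and WT_40h (-1.51, adjusted p = 0.014).

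Arnt encodes the common partner of all alpha subunits. Its 3 WT_40h libraries had 111, 127 and 131 CPM, TKO_40h had 125, 102 and 123 CPM, TKO_48h had 137, 118 and 117 CPM and TKO_96h had 89.5, 103 and 103 CPM. TKO_96h was the lowest group and lay clear of WT_40h and TKO_48h, but not of TKO_40h. The differences did not pass: -0.33 against TKO_48h (95% interval -0.58 to -0.09, adjusted p = 0.052), -0.32 against WT_40h (adjusted p = 0.062) and -0.25 against TKO_40h (adjusted p = 0.19). With DESeq2 the first passed (adjusted p = 0.042), and its lowest adjusted p over all alternatives was 0.041.

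Known HIF target genes, summed, had the same order of groups as Egln1: TKO_48h had 15500 to 19200 CPM, WT_40h 13800 to 14200 CPM, TKO_40h 12200 to 13000 CPM and TKO_96h 5440 to 5710 CPM. Abundant genes weigh heavily in this sum: in WT_40h Gapdh was at 2710, Slc2a3 at 2360 and Slc2a1 at 1090 CPM on average. The list held 32 genes outside the 9, all tested: enzymes and transporters of glycolysis, regulators of mitochondria, collagen hydroxylases and others. It was chosen with earlier results of these data known, so its counts and ranks are descriptions. In TKO_40h against WT_40h none was higher and 4 were lower, where 1.62% of all genes were higher and 1.48% lower. The median log2 fold change was -0.29 over the list against 0.00 over all genes. The transcriptional repressor Bhlhe40 was at 80.8 ± 6.69 against 176 ± 9.33 CPM (-1.12 ± 0.13, adjusted p = 5.2e-05). The matrix cross-linking enzyme Loxl2 (-0.75), the glycolytic regulator Pfkfb3 (-0.83) and the mitophagy receptor Bnip3l (-0.50) were the others.

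This count moved with the settings, from 2 without WT_40h replicate 1, without TKO_40h replicate 1 or with the length offset, to 18 in a fit of these 2 groups alone. It was 13 without both libraries that stand apart, 9 with DESeq2 and 7 without TKO_48h replicate 2 or TKO_96h replicate 1. At an unadjusted p below 0.05, 18 were lower. None of the 32 was higher in any setting.

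With 48 h of priming, 21 of the 32 were higher than in TKO_40h and none was lower, with a median of 0.49. Of all genes, 2.57% were higher and 2.92% lower. Bhlhe40 rose to 224 ± 24.9 CPM (1.47 ± 0.13, adjusted p = 1.7e-06). The next 3 by p were Ero1l, whose product oxidises folding proteins, up 1.98-fold, the stress-response gene Ndrg1, up 2.36-fold, and the glycolytic enzyme gene Aldoa, up 1.56-fold. Bhlhe40 and Egln1 ranked 3 and 4 by p among all genes in that comparison. The count was 9 without TKO_40h replicate 1 or replicate 2, 13 without TKO_40h replicate 3, 12 without TKO_48h replicate 1, 14 without TKO_48h replicate 3 and 6 with the length offset. It was 20 without both libraries that stand apart.

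Against WT_40h, 6 of the 32 were higher in TKO_48h and none was lower (median 0.31), where 2.84% of all genes were higher and 2.82% lower. Ndrg1 was at 101 ± 13.8 against 44.5 ± 5.05 CPM (adjusted p = 0.0006). Plod2, a lysyl hydroxylase of collagen, was at 249 ± 11.2 against 173 ± 10.1 CPM. Ero1l was at 180 ± 17.3 against 125 ± 18.5 CPM (adjusted p = 0.025). Gapdh, a glycolytic enzyme gene with many near-identical pseudogenes that could share its reads, was 1.46-fold higher. The count was 3 without WT_40h replicate 2, WT_40h replicate 3 or TKO_48h replicate 3, and 3 with the length offset. It was 9 with DESeq2 and 7 without both libraries that stand apart, and 9 higher with 1 lower without TKO_48h replicate 2.

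With 96 h of priming the targets fell: 26 of 32 were lower than in TKO_40h and none was higher. Of all genes, 4.94% were higher and 7.2% lower. The median of the list was -1.79 against 0.00 over all genes. The 4 smallest p-values among all 16178 genes in that comparison belonged to this list, which was chosen with earlier results of these data known. P4ha1, a collagen prolyl hydroxylase, was at 13.7 ± 0.449 against 143 ± 6.23 CPM (-3.38 ± 0.12, adjusted p = 2.4e-13). Bnip3, a mitophagy receptor, was at 11.7 ± 3.01 against 184 ± 27.5 CPM, and the lactate exporter gene Slc16a3 at 14.5 ± 3.56 against 191 ± 12.7 CPM. Loxl2 was at 2.91 ± 1.26 against 67.4 ± 4.87 CPM, 23.3-fold lower.

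The 6 targets that did not pass, listed after their values were seen, were Car9, Hk2, Pfkfb4, Mxi1, Higd1a and Gapdh. From TKO_48h to TKO_96h, 31 of the 32 fell (median -2.57), where 8.82% of all genes were higher and 10.7% lower. The exception was the glycolytic regulator Pfkfb4 (-0.69, adjusted p = 0.52), a gene named after its value was seen. Against WT_40h, 29 were lower in TKO_96h and none was higher (median -2.28), where 9.1% of all genes were higher and 10.1% lower. Among the 29 was the glucose transporter gene Slc2a1, at 148 ± 10.2 against 1090 ± 5.51 CPM. Over all alternatives these counts were 23 to 26, 28 to 31 and 26 to 29, always lower.

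**Figure D4:**
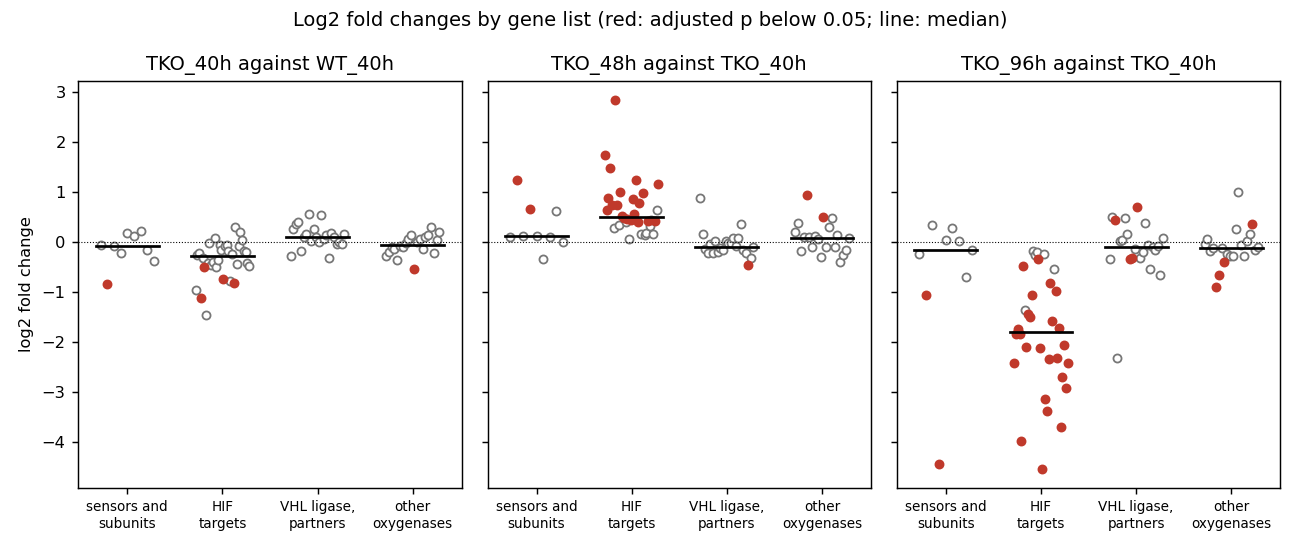
Log2 fold changes (vertical axis) of the 9 sensors and subunits and of 3 gene lists in 3 comparisons; points are genes, red where the adjusted p was below 0.05, and lines are medians. HIF targets sit mostly above 0 in TKO_48h against TKO_40h (median 0.49) and below 0 in TKO_96h against TKO_40h (median -1.79), while the medians of the ligase and partner list and of the oxygenase list lie between -0.12 and 0.09.

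The remaining parts of the VHL ligase and the other partners of HIF formed a list of 22 genes: subunits of the ligase, its activators, coactivators, chaperones and others. None passed between TKO_40h and WT_40h by edgeR or DESeq2, where 1.62% of all genes were higher and 1.48% lower, with 4 at an unadjusted p below 0.05, all of them positive, and 2 passed as higher in a fit of these groups alone or without both libraries that stand apart, and 1 without TKO_48h replicate 2 or TKO_96h replicate 1. With all libraries the most abundant members, the chaperone genes Hsp90ab1 and Hsp90aa1, stood at 0.09 and 0.25 on the log2 scale (adjusted p = 0.73 and 0.19). Only Ube2d3, a ubiquitin-conjugating enzyme, was lower in TKO_48h than in TKO_40h (194 ± 18.8 against 267 ± 11.1 CPM, adjusted p = 0.023) and than in WT_40h (adjusted p = 0.024), where 2.92% and 2.82% of all genes were lower. The first call was lost without any 1 TKO_40h library or without TKO_48h replicate 1 or replicate 3, the second without WT_40h replicate 1 or replicate 3 or the same TKO_48h libraries, and both with the length offset. Without both libraries that stand apart, 2 genes of the list were lower in TKO_48h than in TKO_40h.

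In TKO_96h against TKO_40h, Nedd8, the ubiquitin-like activator of cullin ligases, was higher (113 ± 14.9 against 70.2 ± 3.44 CPM, adjusted p = 0.0026). Cited2, which competes with HIF1A for its coactivator p300, was higher by 0.44 ± 0.14 (adjusted p = 0.04). Ep300, the gene of that coactivator, was lower by -0.34 ± 0.10 (adjusted p = 0.04), and Hsp90aa1 by -0.33 ± 0.09 (adjusted p = 0.027). The median of the list was -0.10, and over all genes 4.94% were higher and 7.2% lower. Single libraries decided these counts: from 2 lower and 2 higher, the lower ones fell to 0 without WT_40h replicate 1 or replicate 3, any 1 TKO_40h library, TKO_48h replicate 3 or TKO_96h replicate 1, and to 1 without WT_40h replicate 2 or TKO_96h replicate 3. The higher ones fell to 1 without WT_40h replicate 1, any 1 TKO_40h library or TKO_96h replicate 1 or replicate 2. Without both libraries that stand apart 1 was higher and 2 were lower, and with the length offset 1 and 0.

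Against TKO_48h, 4 of the 22 were higher in TKO_96h and 2 lower, where 8.82% of all genes were higher and 10.7% lower. Nedd8 (0.70 ± 0.14, adjusted p = 0.0014) and Cited2 (0.58 ± 0.14, adjusted p = 0.0054) were among the higher ones. Arnt2, a paralogue of Arnt, was at 9.63 ± 1.53 against 22.5 ± 4.16 CPM (-1.22 ± 0.28, adjusted p = 0.004). Siah2, a ubiquitin ligase that acts on PHD enzymes, was lower by -0.89 ± 0.26 (adjusted p = 0.019). Against WT_40h, Cited2, Nedd8, Elob (a subunit of the VHL ligase) and Arntl, a clock factor related to Arnt, were higher. Ep300, named here after its value was seen, was lower than in WT_40h, where 9.1% of all genes were higher and 10.1% lower. Of the former comparison, the higher genes were 2 without TKO_48h replicate 3, TKO_96h replicate 1 or TKO_96h replicate 2, and the lower ones 1 without TKO_48h replicate 3 and 5 without TKO_48h replicate 2. Without both libraries that stand apart 2 were higher and 0 lower, and with the length offset 1 and 0, so that Arnt2 and Siah2 were lost in both. Of the latter, the higher genes were 2 without WT_40h replicate 2 or TKO_96h replicate 1, and Ep300 was lost without either, WT_40h replicate 1, any 1 TKO_40h library or TKO_48h replicate 3. It was also lost without both libraries that stand apart (4 higher and 0 lower) and with the length offset (2 and 0).

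Other enzymes that use oxygen formed the oxygenase list of 20 genes, for histone demethylases, TET enzymes and others. In TKO_40h against WT_40h 0 were higher and 1 lower, where 1.62% of all genes were higher and 1.48% lower. In TKO_48h 2 were higher and 0 lower than in TKO_40h (2.57% and 2.92% of all genes), and in TKO_96h 1 was higher and 3 were lower than in TKO_40h (4.94% and 7.2%). Kdm6b, an H3K27 demethylase, was lower in TKO_40h than in WT_40h (153 ± 9.75 against 224 ± 2.57 CPM, adjusted p = 0.0061) and higher in TKO_48h than in TKO_40h (216 ± 2 CPM, adjusted p = 0.0081). Kdm4b, an H3K9 demethylase known as a HIF target, was at 68.2 ± 5.96 CPM in WT_40h and, with 40, 48 and 96 h of priming in TKO, at 52.9 ± 14.9, 101 ± 7.9 and 28.2 ± 5.4 CPM. It was higher in TKO_48h (adjusted p = 0.0033) and lower in TKO_96h (adjusted p = 0.0018) than in TKO_40h.

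In TKO_96h against TKO_40h, Kdm4c and Kdm5b were lower too (-0.67 and -0.40), and Tet1, a 5-methylcytosine oxidase, was higher (1100 ± 151 against 859 ± 64.2 CPM, adjusted p = 0.044). Tet1 was lower in TKO_48h than in WT_40h (-0.49, adjusted p = 0.014). The call of Tet1 in TKO_96h was lost without any 1 library of WT_40h or TKO_40h, TKO_48h replicate 3, or TKO_96h replicate 2 or replicate 3, and that in TKO_48h without any 1 WT_40h library or TKO_48h replicate 1 or replicate 3. Without TKO_40h replicate 2, 1 of the 2 genes higher in TKO_48h than in TKO_40h was called, and with the length offset none. Over the list, 2 were higher and 5 lower between TKO_96h and TKO_48h (8.82% and 10.7% of all genes), and 1 (Riox2, a ribosomal oxygenase gene, named after its value was seen) was higher and 4 lower between TKO_96h and WT_40h (9.1% and 10.1%). Riox2 was lost without WT_40h replicate 2 or replicate 3 or TKO_96h replicate 3. With the length offset, Kdm6b at 40 h, Tet1 in TKO_48h and Riox2 were lost as well, and 3 were higher and 3 lower between TKO_96h and TKO_48h. Without both libraries that stand apart the latter were 2 and 4. The medians of the list stayed between -0.19 and 0.08 over the 6 comparisons.

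Markers of cell types moved beside the drop at 96 h. Of 11 germ cell markers, Prdm1, Tfap2c and Dppa3, factors of germ cell specification and early germ cells, were lower in TKO_96h than in TKO_40h. Prdm1 was at 10.4 ± 2.91 against 20.9 ± 1.4 CPM, Tfap2c at 28.1 ± 6.78 against 48.6 ± 5.48 CPM and Dppa3 at 18.5 ± 2.12 against 51.5 ± 5.44 CPM. The pluripotency genes Pou5f1 and Sox2 were higher (adjusted p = 0.0017 and 0.034). In the same comparison 4.94% of all genes were higher and 7.2% lower. The summed level of the 11 ran from 1680 to 1770 CPM in TKO_40h and from 1830 to 2240 CPM in TKO_96h. Prdm1, Tfap2c and Dppa3 held only a small part of that sum, so it does not show their fall.

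Of the 7 neural markers, 5 were tested, and Nes and Tubb3 were higher in TKO_96h than in TKO_40h (adjusted p = 0.0001 and 0.00094). The sum of the 7 was 219 to 250 CPM in TKO_96h. It was 128 to 148 CPM in TKO_40h, while TKO_48h had 154 to 171 CPM and WT_40h 149 to 166 CPM. Of 9 trophoblast markers, 8 were tested, and Eomes, Hand1 and Gata3 were lower (sum of 52.4 to 57.4 CPM against 76.6 to 87.6). Of 10 endoderm markers, 8 were tested, and Afp, without a count in TKO_96h, was lower (sum of 20.4 to 42.1 against 56.4 to 59.1 CPM). The 12 endothelium and blood markers (9 tested, sum of 91.2 to 100.0 against 77.4 to 90.4 CPM) and the 9 mesoderm markers (5 tested, 10.1 to 15.7 against 12.5 to 20.5 CPM) had none that passed, and T and Meox1 were without a count in TKO_96h.

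At 40 h, Cdh5 and Sox18 of the endothelium list and Hand1 of the trophoblast list were higher in TKO_40h than in WT_40h. Dppa3 was higher there and Kit lower, where 1.62% of all genes were higher and 1.48% lower. The sums of 3 lists lay above WT_40h without overlap: trophoblast (76.6 to 87.6 against 41.3 to 52.1 CPM), endoderm (56.4 to 59.1 against 34.4 to 44.6 CPM) and mesoderm (12.5 to 20.5 against 8.01 to 8.24 CPM). The neural sum lay below it, and those of germ cells (1650 to 1770 CPM in WT_40h) and endothelium (72.5 to 94.8 CPM) overlapped. No single gene passed in this comparison among the 8 endoderm and 5 mesoderm genes tested, and the sums were not tested.

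With 48 h of priming, Kit and the neural gene Nes were higher than in TKO_40h, and no gene of the other 4 lists passed. Of all genes, 2.57% were higher and 2.92% lower. Against WT_40h, genes higher in TKO_48h included Cdh5, Sox18, Hand1, Gata2, Nes and Dppa3, and Sox1 was lower. There 2.84% of all genes were higher and 2.82% lower. The TKO_48h sums were 1730 to 2230 CPM for germ cells, 96.9 to 104 for endothelium, 39.2 to 55.3 for endoderm, 61.8 to 81.6 for trophoblast and 14.4 to 19.7 for mesoderm. The part of these cell types in the differences of Egln1, Egln3 and the HIF targets was not tested.

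The genes most like each of the 3 that differed were found among 10800 genes of at least 5 CPM on average, by Pearson correlation of log2 CPM over the 12 libraries. For Egln1 they were Gpi1, a glycolytic enzyme gene (r = 0.989), Ptprs, a receptor phosphatase (0.986), and Bhlhe40 (0.986). Gpi1 was at 567 ± 7, 376 ± 18.7, 628 ± 47.2 and 208 ± 13.7 CPM in WT_40h, TKO_40h, TKO_48h and TKO_96h. For Egln3 they were P4ha1 (0.997), the glucose transporter gene Slc2a3 (0.995) and Bnip3 (0.995). Slc2a3 was at 2360 ± 61.3, 2050 ± 41.2, 2740 ± 255 and 489 ± 41.2 CPM in the same order. For Hif1a they were the imprinting factor Zfp57 (0.956), Utp4 (0.953) and Hnrnpm (0.952). Zfp57 was at 223 ± 25.4, 274 ± 10.1, 187 ± 20.1 and 349 ± 21.4 CPM in the same order.

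Among the 9 genes themselves, Egln1 correlated with Egln3 at r = 0.90 and with Hif1a at r = -0.92, and Hif1an with Epas1 at r = 0.90. The 12 points of each fall into 4 groups of 3 and share their libraries, so these values are descriptions without a test.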

How the data were processed

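Bulk total RNA of 12 samples, 10 ng or more each, went into SMARTer Stranded Pico libraries, per the labels. The submitters' processing notes name Trim Galore 0.6.2, kallisto and the build GRCm38 (mm10). Which kallisto version and which transcripts were used is not given in the sources used here. The deposited files hold, per transcript, estimated counts, TPM that the authors' kallisto run scaled to effective length and depth, and lengths in bases. Of 119414 transcripts, 116728 (97.75%) were matched to GENCODE M21.

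Estimated counts were summed per gene, rounded and tested with edgeR 4.0.16 in R 4.3.3: TMM scaling, filterByExpr (minimum count 10, minimum total 15), 1 mean per group over all 12 libraries with 8 residual degrees of freedom, and the quasi-likelihood F-test with Benjamini-Hochberg adjustment over 16178 genes at 0.05. CPM use TMM library sizes. Intervals and SE come from that fit. Matched genes held 6286329 to 8820668 counts per library. The biological coefficient of variation was 0.241. TPM were summed per gene and only described.

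All 9 genes are named. Of each list around HIF, the genes set to be named were the called genes of smallest adjusted p, at most 4 per comparison. Where none was called, they were the 2 of highest CPM. Not all of them are named in every comparison, and genes named after their values were seen are marked. Likeness is given for genes that passed the test over the 4 groups. The 9 genes and the lists were chosen with earlier results of these data known. Promoter windows are RefSeq's (GRCm38.p6). Hif1a shares exon bases with Gm49321, which had 0 to 7 counts, and Egln2 shares 11 bases with Cyp2t4, which had 0 to 22. Alternatives were DESeq2 1.42.0, RLE size factors, no filter, a robust fit, a replicate block, an effective length offset, only the groups compared, and leaving out each library. Chosen after seeing the data were protein-coding genes only without Lars2, Ccnb1ip1 and Gm20594, and leaving out both libraries that stand apart. The values of 1 marker gene are not reported here.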

Additional observations from a re-analysis of the deposited data

How the results depend on the processing

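Of 1134 alternatives for a single gene in 1 pairwise comparison, 1093 kept their side of the threshold, 27 lost a call and 14 gained one. Calls that reversed direction numbered 0. Direction was compared only where a call was made, and without a call it could change. For Hif1an in TKO_96h against TKO_48h, the log2 fold changes of the alternatives ran from -0.147 to 0.304. The number of the 9 genes called stayed at 1 in TKO_40h against WT_40h in every alternative. In TKO_48h against TKO_40h it was 2, and 1 with the effective length offset or without both libraries that stand apart; without 1 library it ranged from 1 to 3. In TKO_96h against TKO_48h it was 4, and 2 with the offset; without 1 library it ranged from 3 to 4. In TKO_48h against WT_40h it was 1, and 0 with the offset, with no filter on low counts or with only the groups compared; without 1 library it ranged from 0 to 1. Without 1 library it ranged from 2 to 3 in TKO_96h against TKO_40h (2 with all), from 2 to 4 in TKO_96h against WT_40h (3 with all) and from 3 to 4 over the 4 groups (3 with all). The cause was not tested, except that the offset and smaller fits use other or fewer values by construction.

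Same-numbered replicates did not deviate together (correlations of deviations from -0.06 to 0.051 over 18 pairs). The fit with a replicate block called 1, 2, 2, 4, 1 and 3 genes in the 6 comparisons, as without it, and 4 over the 4 groups.

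Over all genes, the offset called 77 in place of 501 (TKO_40h against WT_40h), 203 in place of 888 (TKO_48h against TKO_40h), 826 in place of 1965 (TKO_96h against TKO_40h), 1639 in place of 3157 (TKO_96h against TKO_48h), 239 in place of 916 and 1473 in place of 3099 (TKO_48h and TKO_96h against WT_40h), and 1878 in place of 4119 over the 4 groups. The 501 became 784 with DESeq2, 787 with no filter, 1279 with only the groups compared and 898 without both libraries that stand apart, and the 916 became 586 with only the groups compared. Without 1 library, the first 3 counts ranged from 181 to 667, 324 to 1107 and 1210 to 2270, and the 916 from 396 to 1540. Hif3a rested on 24 to 155 counts per library, with an SE of 0.38 to 0.39.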
